A study of Mus musculus with 2 samples.

Results

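The genes described here are 9 genes of zinc handling out of the 32285 genes counted in each library: the metallothionein genes Mt1, Mt2 and Mt3, the zinc exporter family genes Slc30a1, Slc30a5, Slc30a7 and Slc30a8, and the zinc importer family genes Slc39a7 and Slc39a14. They were chosen by name, with earlier results of these data known, and all 9 were found. Their RNA was measured in single cells of islets, the hormone-making cell clusters of the pancreas, of mice labelled DIO. All mice received 2 weeks of treatment. The saline group got saline, the CDS group got 10 mg/kg of an agent labelled CDS, and each group is 1 library. The series title concerns a peripheral antagonist of the alpha2A-adrenergic receptor, and nothing in the labels ties CDS to that compound. The labels also give no number of mice per library, so no value here has a replicate check, no test between the groups was made, and every 95% interval covers counting error only.

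Metallothioneins are small, cysteine-rich proteins that bind zinc and copper and buffer them in the cell. The transcription factor MTF1 senses free zinc and switches on Mt1, Mt2 and Slc30a1 through short DNA motifs called metal response elements. Slc30a genes encode ZnT transporters, which move zinc out of the cytosol, either out of the cell or into organelles. Slc39a genes encode ZIP transporters, which move it into the cytosol. In beta cells, ZnT8, the product of Slc30a8, loads zinc into the granules in which insulin is stored around zinc ions.

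The promoters of the metallothionein genes and of Slc30a1 are printed because MTF1 acts there. Each line gives the 250 bases before the transcription start, 5′ to 3′, from RefSeq on build GRCm38.p6. For Mt1, Mt2 and Slc30a1 this start differs from the gene start given further below, which is from GENCODE M21. Distances to the start are to the RefSeq start. Capitals mark matches to the core of the metal response element, searched as TGCACNC or TGCGCNC on both strands. Mt1 lies on the plus strand and its promoter at chr8:94178839-94179088. The Mt2 promoter is at chr8:94172368-94172617 and the Mt3 promoter at chr8:94152357-94152606, both on the plus strand. That of Slc30a1, also on the plus strand, is at chr1:191906531-191906780.
Mt1: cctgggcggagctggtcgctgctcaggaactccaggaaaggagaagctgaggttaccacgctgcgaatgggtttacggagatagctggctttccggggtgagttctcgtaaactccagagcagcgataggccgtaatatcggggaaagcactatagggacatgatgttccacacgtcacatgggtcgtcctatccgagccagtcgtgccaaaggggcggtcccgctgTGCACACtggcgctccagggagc
Mt2: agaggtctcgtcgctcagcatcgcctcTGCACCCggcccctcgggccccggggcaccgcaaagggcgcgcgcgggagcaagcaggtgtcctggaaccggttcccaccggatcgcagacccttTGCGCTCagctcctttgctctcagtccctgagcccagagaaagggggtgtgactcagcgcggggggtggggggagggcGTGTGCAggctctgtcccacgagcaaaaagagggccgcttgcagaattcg
Mt3: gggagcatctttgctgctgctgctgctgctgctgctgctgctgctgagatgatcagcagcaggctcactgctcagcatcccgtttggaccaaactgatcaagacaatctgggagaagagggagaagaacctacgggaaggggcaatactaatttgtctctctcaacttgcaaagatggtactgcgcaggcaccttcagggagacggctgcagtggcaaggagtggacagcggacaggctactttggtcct
Slc30a1: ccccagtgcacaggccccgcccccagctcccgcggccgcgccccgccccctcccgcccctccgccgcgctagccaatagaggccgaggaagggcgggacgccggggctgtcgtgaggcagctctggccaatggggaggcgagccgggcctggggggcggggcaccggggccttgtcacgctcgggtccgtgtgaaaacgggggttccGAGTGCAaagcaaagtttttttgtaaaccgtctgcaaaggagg
The Mt1 promoter held 1 match, from 23 to 17 bases before the start. The Mt2 promoter held 3, from 223 to 217, from 128 to 122 and from 50 to 44 bases before it. Slc30a1 had 1 match, from 43 to 37 bases before the start, and Mt3 had none in this window. Of the other promoters in the table, that of Slc30a5 had 1 match and those of Slc30a7 and Slc39a7 had none. Of 32851 promoters of this length, 21.4% held at least 1 match and 1.26% held at least 3. When the window was extended to 50 bases after the start, Mt1 had 3 matches, Mt2 had 4, Slc30a1 had 2 and Mt3 had 1, and 1.97% of all promoters had at least 3. Slc30a8 and Slc39a14 had no entry.

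On build mm10 the metallothionein genes sit side by side on chromosome 8. Mt3 (ENSMUSG00000031760) runs from 94152607 to 94154146, Mt2 (ENSMUSG00000031762) from 94172664 to 94173568 and Mt1 (ENSMUSG00000031765) from 94179082 to 94180327. An antisense gene, Gm45774, overlaps Mt2, and Mt1 and Mt2 are paralogs. How reads that match both genes were counted was not stated in the sources at hand. The transporter genes are spread over 6 chromosomes. Slc30a1 (ENSMUSG00000037434) is at 191906767 to 191913247 on chromosome 1, overlapped by the antisense gene 1700034H15Rik, and Slc30a5 (ENSMUSG00000021629) at 100802648 to 100833427 on chromosome 13. Slc30a7 (ENSMUSG00000054414) is at 115938973 to 116007406 on chromosome 3 and Slc30a8 (ENSMUSG00000022315) at 52295553 to 52335798 on chromosome 15. Slc39a7 (ENSMUSG00000024327) is at 34028269 to 34031682 on chromosome 17, overlapped by Gm20427 on the same strand, and Slc39a14 (ENSMUSG00000022094) at 70303469 to 70351425 on chromosome 14.

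The saline library held 124343325 UMIs (molecular tags that count captured RNA molecules) in 12453 barcodes, and the CDS library 141191447 in 7268. After filters and removal of called doublets, 10977 saline and 6159 CDS cells remained, with a median of 9794 and 19069 UMIs. The libraries shared 18 barcode sequences. The labels call the cells islet b cell, but other cell types were present in both libraries, so cells were gated on their own RNA. A cell counted as a beta cell when Ins1 and Ins2, the insulin genes, made up at least 15% of its UMIs and it passed no other hormone's limit. It also had to hold under 2% acinar marker UMIs. Of the endothelial, macrophage, stromal, B and T cell markers, it had to hold under 3 of each class. Just below the insulin limit, at 10 to 15% insulin, lay 107 saline and 106 CDS cells, and just above it, at 15 to 20%, 161 and 123. This gave 4919 saline and 3581 CDS beta cells, 878 and 960 alpha cells, 475 and 425 delta cells, 134 and 64 PP cells, 313 and 239 endothelial cells, and 139 and 133 macrophages. Of 10 beta cell markers, 9 were detected in these beta cells and Adcyap1 was at 0 in both libraries. Classes were given to all but 14.7% of saline and 10.5% of CDS cells. Median depth per beta cell was 15821 UMIs for saline and 27524 for CDS.

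Mt1 RNA was found in every cell class, at levels that differed widely. Levels are given as CPM, the gene's UMIs per 1000000 UMIs of the class, and compared only within a gene. Among the classes with at least 50 cells in each library, macrophages were highest, at 3402 CPM (95% Poisson interval 3280 to 3528) for saline and 5328 (5204 to 5455) for CDS. Beta cells followed, at 1253 and 3324 CPM. Delta cells stood at 975 and 1770, PP cells at 960.0 and 1601, alpha cells at 643 and 1169, and endothelial cells were lowest at 443 and 549. Delta and PP cells in the saline library overlapped in their intervals, 948 to 1004 against 915 to 1006 CPM, and were the only neighbours of that order to do so in either library. Both libraries had the same order of these classes, and the CDS value was higher in each of the 6. The few acinar cells, the digestive enzyme cells around islets, had more still, at 6686 CPM over 59 saline cells and 17155 over 36 CDS cells. T and B cells, common only in the saline library, had 371 and 332 CPM there.

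**Figure D1:**
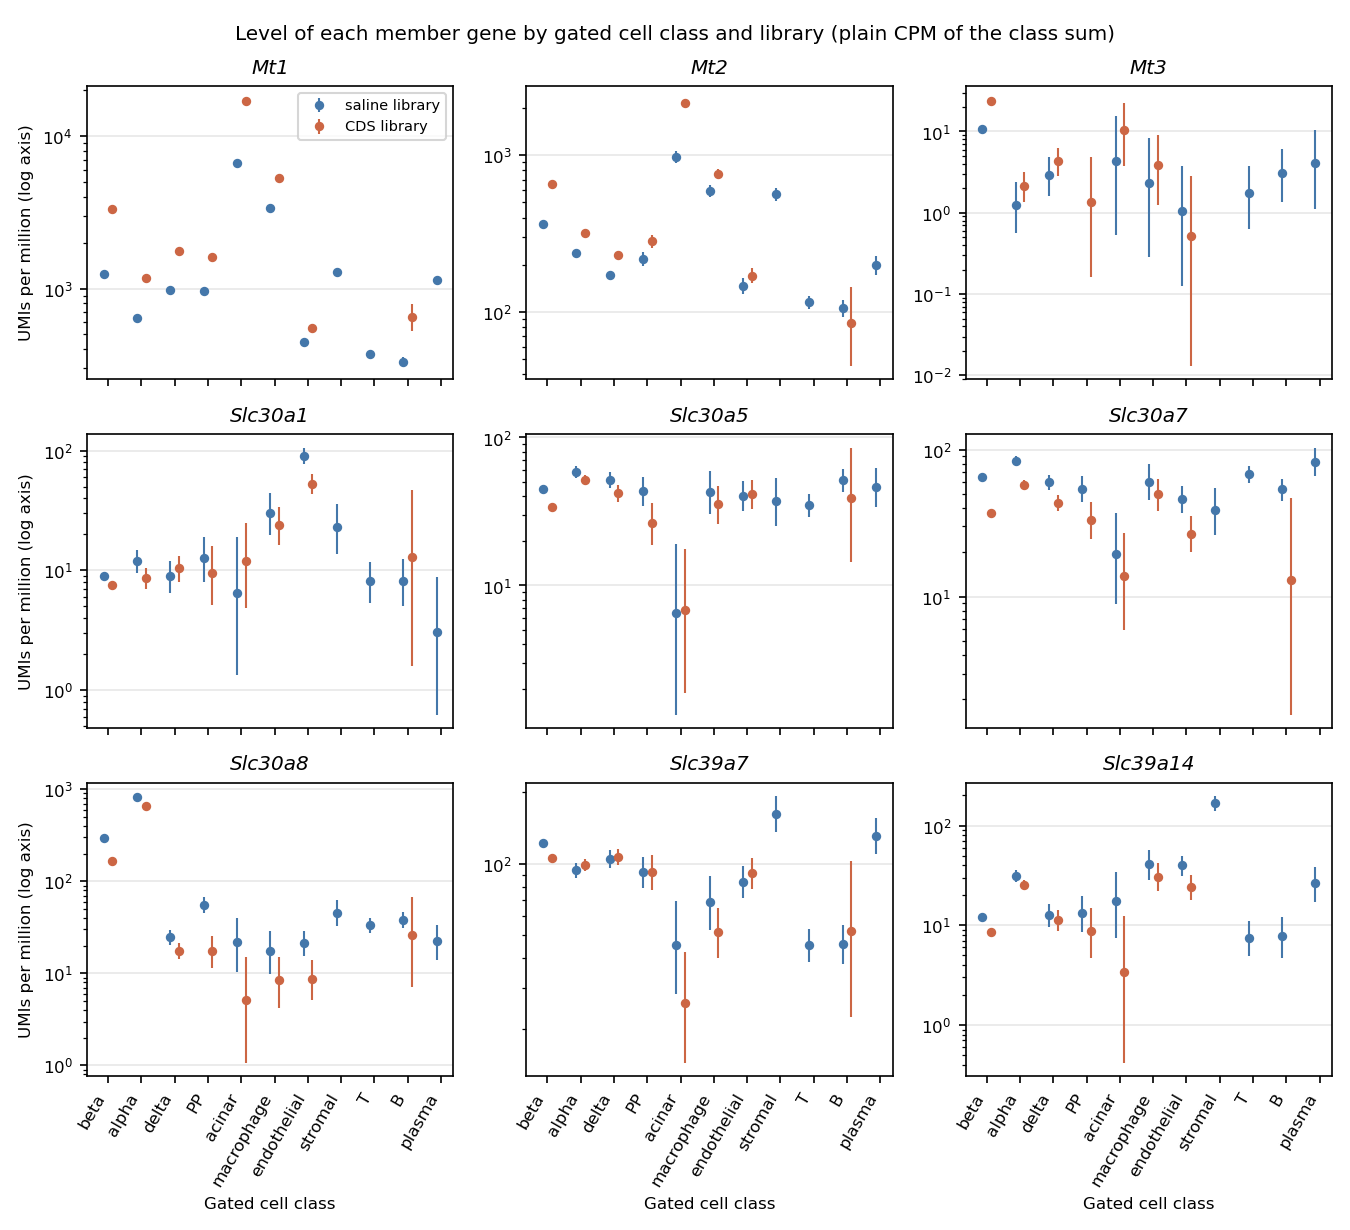
Level of each of the 9 genes in 11 gated cell classes, in CPM on a log axis, with blue points for the saline library, orange points for the CDS library and bars for 95% Poisson intervals. Values of 0 and classes with under 30 cells are not drawn. Mt1 and Mt2 are highest in acinar cells and macrophages, Slc30a8 is highest in alpha cells at 819 and 662 CPM, and Mt3 is highest in beta cells at 10.7 and 23.9 CPM.

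Mt2 had a similar order. It was at 593 and 763 CPM in macrophages, 363 and 652 in beta cells, 237 and 320 in alpha cells, 218 and 282 in PP cells, 171 and 231 in delta cells and 147 and 171 in endothelial cells. The intervals of alpha and PP cells overlapped in both libraries, and those of delta and endothelial cells overlapped in the saline library. Saline stromal cells, 81 in number, had 563 CPM. Across the 6 classes of each library, 12 sums in all, the log2(CPM + 1) levels of Mt1 and Mt2 had a Pearson correlation of 0.92. Of 5929 genes ranked by likeness to Mt1, only the lipid transfer protein gene Scp2 lay above Mt2, at 0.93. The next were Tmem205 at 0.91, the stress-associated endoplasmic reticulum gene Serp1 at 0.90 and Creg1 at 0.90. These 12 sums share 2 libraries, so this is a description only.

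Mt3, known mainly from the brain, was highest in beta cells among the classes with at least 50 cells in each library. Beta cells had 858 UMIs of it for saline and 2361 for CDS, or 10.7 and 23.9 CPM. Alpha cells had 9 and 24 UMIs, at 1.2 and 2.14 CPM, and delta cells 14 and 26, at 2.92 and 4.29. PP cells, endothelial cells and macrophages had at most 5 UMIs of it in a library. The few acinar cells had 2 and 6 UMIs, at 4.34 and 10.3 CPM. Saline B cells, T cells and plasma cells had 8, 6 and 4 UMIs, at 3.11, 1.73 and 4.04 CPM, and saline stromal cells had 0. Insulin RNA in alpha cells was at 5.52% and 4.58% of its beta cell level, while Mt3 was at 11.6% and 8.97% of its own. In delta cells insulin RNA was at 5.49% and 4.38% and Mt3 at 27.2% and 18.0%. These Mt3 shares rest on few UMIs.

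Slc30a8 was an alpha and beta cell gene, and alpha cells had more of it. Alpha cells stood at 819 CPM (798 to 840) for saline and 662 (647 to 677) for CDS, and beta cells at 296 (293 to 300) and 165 (163 to 168). Leaving hormone, digestive enzyme and mitochondrially encoded genes out of the denominator gave 995 and 817 in alpha cells and 518 and 323 in beta cells, which kept the order of these classes. PP cells had 55.7 and 17.6 CPM. Delta cells had 24.6 and 17.6, endothelial cells 21.5 and 8.76, and macrophages 17.5 and 8.44.

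Free RNA in a droplet library can give UMIs of a gene in cells that do not make it, so low Slc30a8 values were set beside insulin RNA, the main product of beta cells. Insulin RNA in macrophages was 5.56% of its beta cell level for saline and 5.23% for CDS, and Slc30a8 was 5.90% and 5.11% of its own. In endothelial cells insulin stood at 5.71% and 4.73% and Slc30a8 at 7.27% and 5.30%. In saline T cells the shares were 10.3% for insulin and 11.3% for Slc30a8, and in saline B cells 10.7% and 12.8%. Values this near the insulin share were not read as expression. The 31 CDS B cells had 8.33% and 15.8%, the latter on 4 UMIs. Slc30a8 lay further above insulin in delta cells, at 8.29% and 10.7% against 5.49% and 4.38%, in PP cells, at 18.8% and 10.6% against 4.18% and 3.09%, and in the 81 saline stromal cells, at 15.4% against 4.19%. The part of free RNA in these classes was not tested. Alpha cells stood at 276% and 401%.

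**Figure D2:**
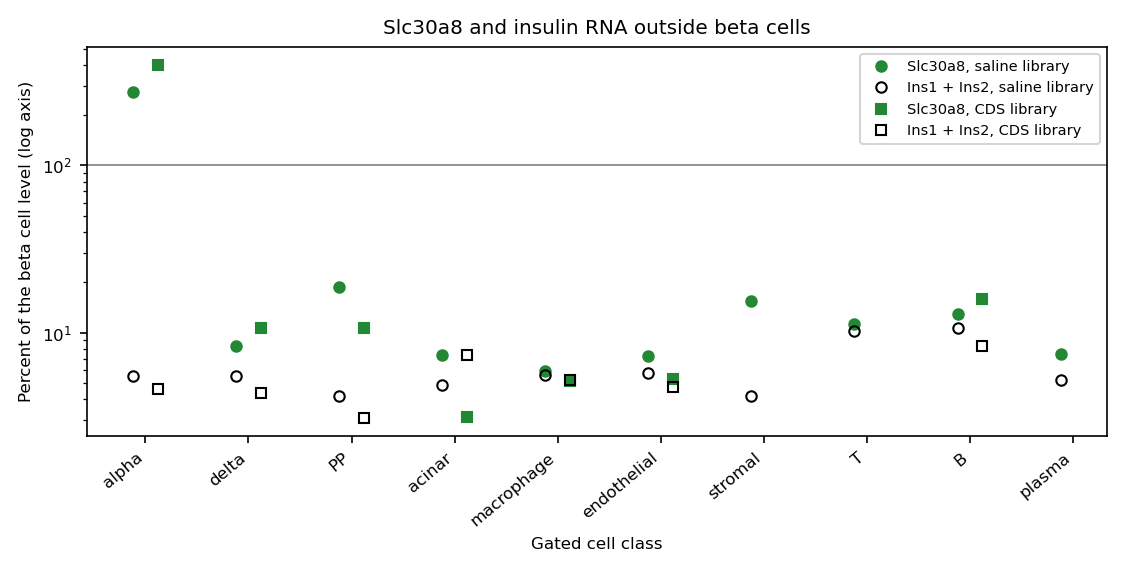
Slc30a8 (green) and insulin RNA (open symbols) in each gated class outside beta cells, as a percentage of the beta cell level of the same library on a log axis, with circles for saline and squares for CDS. Slc30a8 lies near the insulin share in macrophages, endothelial cells, T cells and saline B cells, and above 100% only in alpha cells, at 276% and 401%.

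The other transporter genes had their own patterns. Slc30a1, the exporter of the outer cell membrane, was highest in endothelial cells, at 90.9 CPM (77.9 to 105) and 53.1 (43.3 to 64.3). Macrophages had 30.3 and 23.8 CPM of it, and beta cells 8.91 and 7.5, with alpha, delta and PP cells between 8.56 and 12.7. Slc39a14, an importer of zinc, iron and manganese at the cell surface, reached 166 CPM (140 to 196) in saline stromal cells. It stood at 40.8 and 30.7 CPM in macrophages, 39.9 and 24.2 in endothelial cells, 31.3 and 25.6 in alpha cells and only 12.2 and 8.54 in beta cells. Slc30a5 and Slc30a7, which carry zinc into the early secretory pathway, varied less among these 6 classes. Slc30a5 ranged from 40.5 to 58.5 CPM for saline and from 26.4 to 51.6 for CDS, and Slc30a7 from 46.2 to 83.6 and from 26.8 to 57.8, with alpha cells highest for both genes. Slc39a7, which releases zinc from the endoplasmic reticulum, had 122 and 106 CPM in beta cells, 105 and 107 in delta cells and 68.8 and 51.4 in macrophages.

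In beta cells the 3 metallothionein genes were higher in the CDS library and 2 granule or secretory pathway transporters were lower. For this comparison CPM were scaled with TMM factors, which set the bulk of genes to equal levels. A gene was counted as higher when its CDS level was at least 25% above its saline level, and as lower when it was at least 20% below it, provided that the interval of the ratio left out 1. Of 15301 genes tested in beta cells, 27.9% were counted as higher and 18.4% as lower, and of the 9 genes 3 were higher and 2 lower. Plain CPM gave 9.54% higher and 48.8% lower, and 3 and 4 of the 9 genes. The median log2 ratio was 0.16 over the 9 genes and 0.06 over all genes tested.

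Mt1 had 100123 UMIs in saline and 329013 in CDS beta cells, or 1089 and 3824 TMM-scaled CPM, a ratio of 3.51 (3.49 to 3.54). It ranked 24 of 15301 genes from the highest ratio. Mt3 had 858 and 2361 UMIs, or 9.33 and 27.4 TMM-scaled CPM, a ratio of 2.94 (2.72 to 3.18) and rank 55. Mt2 had 29040 and 64564 UMIs, or 316 and 750 TMM-scaled CPM, a ratio of 2.38 (2.34 to 2.41) and rank 217. All 3 thus passed a ratio of 2 or more, which 4.0% of all genes tested did, while none of the 9 had a ratio of 0.5 or less, which 2.61% did. Since the 9 genes were chosen with earlier results of these data known, these ranks and shares are descriptions only. Under plain CPM, which lies 0.40 lower on the log2 scale than TMM scaling for beta cells as a whole, the ratios were 2.65, 2.22 and 1.80 for Mt1, Mt3 and Mt2.

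Gene length moved with these ratios. Ratios were above 1 for most short genes and below 1 for most long ones, and the metallothionein genes span only 0.905 to 1.54 kb. A running median over 501 genes of like length stood at a log2 ratio of 0.71 for Mt1, 0.72 for Mt2 and 0.64 for Mt3. Against that median the ratios were 2.14 for Mt1, 1.89 for Mt3 and 1.45 for Mt2, so each remained above its length neighbours. RNA of acinar cells, which are rich in Mt1, was also present in beta cells: all 8 acinar markers had UMIs there, summing to 138 CPM for saline and 232 for CDS. At the ratio of Mt1 to marker RNA in gated acinar cells, that RNA would carry 4.67 CPM of Mt1 for saline and 15.4 for CDS. Beta cells had 1253 and 3324 CPM of Mt1 in all. Whether the acinar RNA in beta cells has this ratio was not tested.

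**Figure D3:**
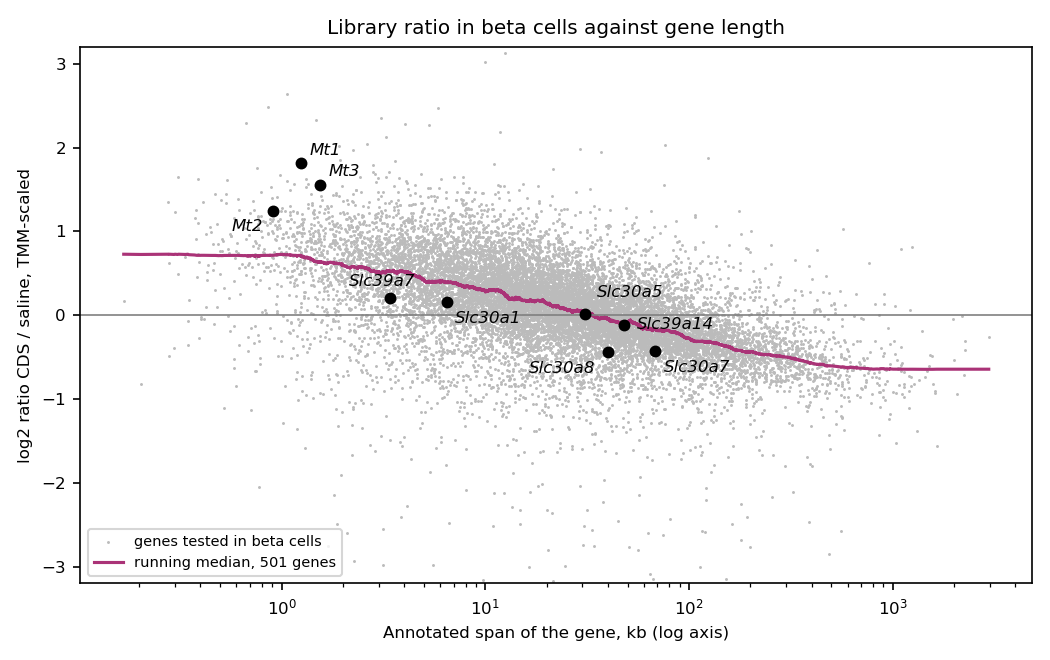
log2 ratio of CDS over saline in beta cells, TMM-scaled, against the annotated span of the gene in kb on a log axis, with grey points for genes tested, a purple line for the running median over 501 genes and black points for the 9 genes. Genes outside the plotted ratios are not drawn. Mt1, Mt2 and Mt3 lie above the line, and Slc30a7 and Slc30a8 lie below it at log2 ratios of -0.42 and -0.44.

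Slc30a8 had 23686 UMIs in saline and 16354 in CDS beta cells, or 258 and 190 TMM-scaled CPM, a ratio of 0.738 (0.723 to 0.753). Slc30a7 had 5225 and 3643 UMIs, or 56.8 and 42.3 TMM-scaled CPM, a ratio of 0.745 (0.714 to 0.778). Both spans are long, 40.2 and 68.4 kb, and against genes of like length the ratios were 0.763 and 0.838, so that Slc30a7 was no longer 20% below 1. Both ratios stayed below 1 under all 11 alternatives, at 0.558 to 0.763 for Slc30a8 and 0.563 to 0.838 for Slc30a7.

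The remaining transporters were not counted as higher or lower in beta cells. Slc30a5 had 3560 and 3359 UMIs and a ratio of 1.01 (0.962 to 1.06), and Slc39a14 had 976 and 845 UMIs and a ratio of 0.925 (0.843 to 1.02). Slc30a1, which MTF1 controls along with Mt1 and Mt2, had 712 and 742 UMIs and a ratio of 1.11 (1.0 to 1.24), which turned to 0.842 under plain CPM and 0.850 against genes of like length. Slc39a7 had 9749 and 10507 UMIs and a ratio of 1.15 (1.12 to 1.18), which turned to 0.870 under plain CPM and 0.802 against genes of like length. Under plain CPM, Slc30a5 and Slc39a14 stood at 0.762 and 0.699 and were counted as lower.

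**Figure D4:**
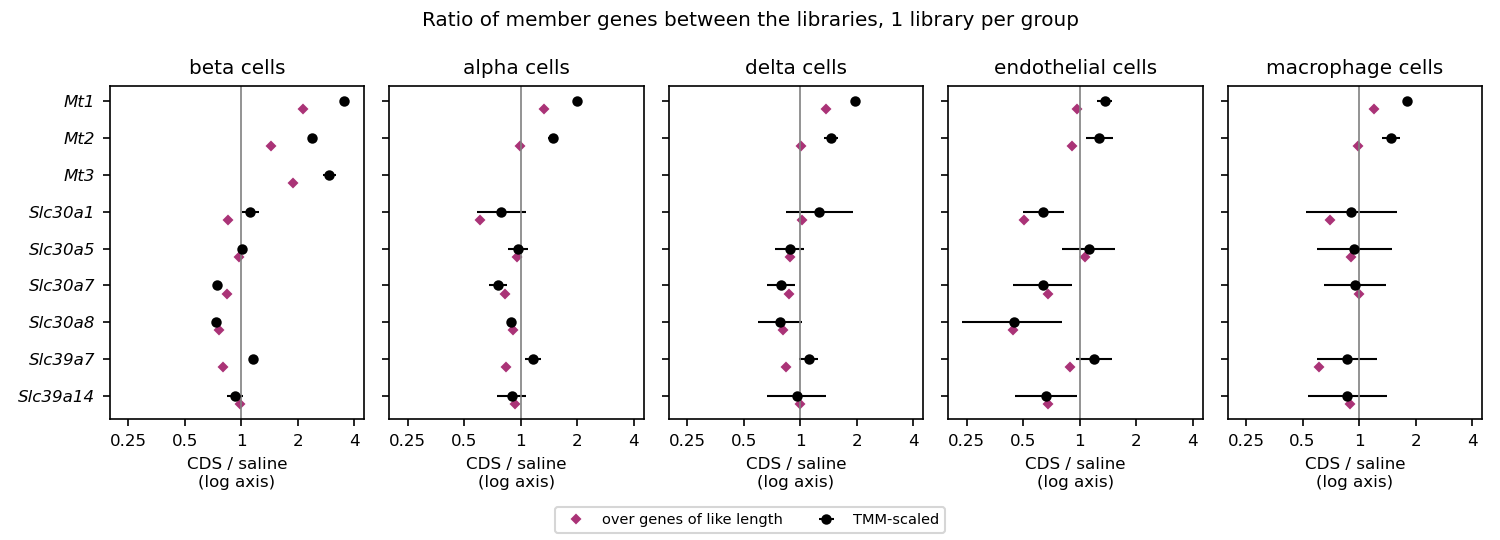
Ratio of CDS over saline for each of the 9 genes in 5 cell classes on a log axis, 1 library per group, with black points for the TMM-scaled ratio, bars for its 95% interval and purple diamonds for the ratio against genes of like length. Genes with under 50 UMIs over both libraries in a class are not drawn. Mt1 and Mt2 lie right of 1 in every class before the length adjustment, and furthest right in beta cells at 3.51 and 2.38.

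Single beta cells spread widely in Mt1. In the saline library the 10th percentile was 0.719 UMIs per 10000, the median 4.14, the 90th percentile 35.2 and the highest cell 247. In the CDS library these values were 2.68, 14.5, 99.8 and 380. The libraries overlapped over most of this range, and the CDS value was higher at each of these points. When cells were clustered, several beta cell clusters were shared by the libraries in unequal numbers. Cluster 1 held 1034 saline and 634 CDS cells and cluster 2 held 634 and 964, while cluster 0 held 2346 and 296, and cluster 5, with Mt1 among its leading genes, 187 and 1048. Cluster 15, led by Mt1 and Mt2, held 104 and 215 cells. The 50% of Mt1 UMIs that lay in the richest cells came from 8.17% of saline and 10.4% of CDS beta cells. The 90th percentile of saline cells was passed by 28.2% of CDS beta cells for Mt1 (1009 of 3581). For Mt2 this share was 19.4% and for Slc30a8 it was 1.93%. The other transporter genes were low too. Slc30a7 stood at 3.07%. Slc39a14 at 3.63%, Slc30a1 at 4.27%, Slc30a5 at 4.78% and Slc39a7 at 5.98% were not counted as lower in beta cells under TMM scaling. These shares come from unthinned cells, and 1 UMI makes a smaller value per 10000 in a deeper cell. More CDS than saline cells had a UMI of Slc30a1 (16.8% against 12.4%), Slc39a14 (20.1% against 17.2%), Slc30a5 (54.3% against 48.6%) and Slc39a7 (84.0% against 79.8%). Fewer had one of Slc30a7 (55.6% against 59.0%) and Slc30a8 (85.8% against 91.5%). The part of depth and scaling in these shares was not tested. Slc30a8 was more even than Mt1, with a median of 2.46 and 1.28 UMIs per 10000 and a 90th percentile of 6.66 and 3.85. The richest 21.6% and 19.7% of cells held 50% of its UMIs.

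**Figure D5:**
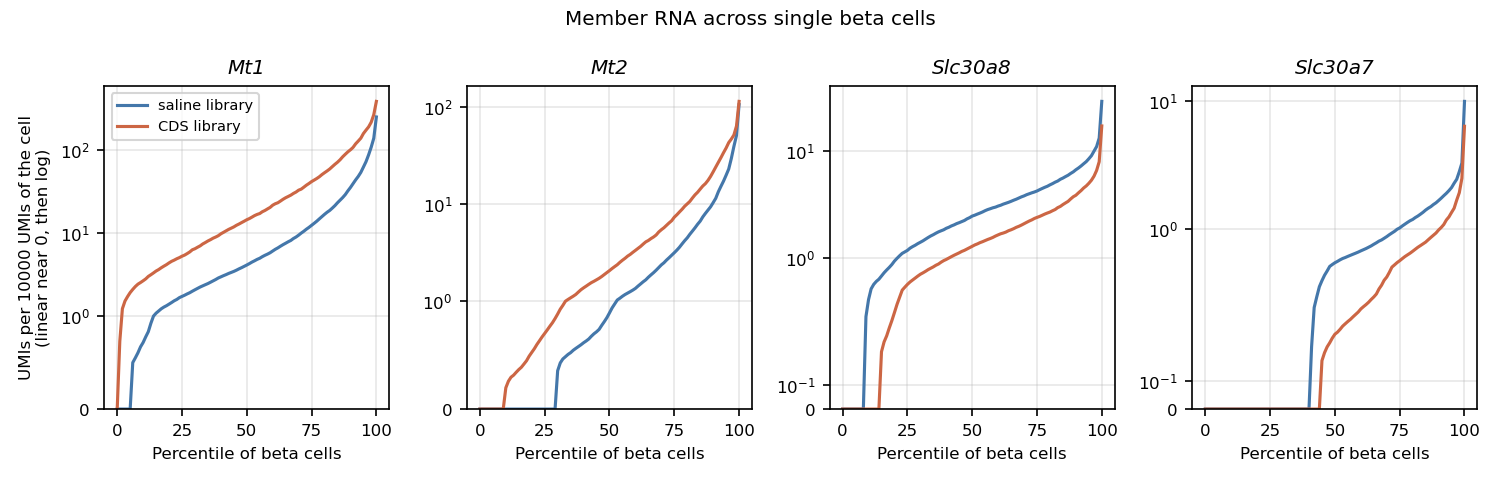
UMIs per 10000 UMIs of the cell for 4 genes at each percentile of beta cells, blue for the saline library and orange for the CDS library, on an axis that is linear near 0 and then logarithmic. The CDS line lies above the saline line along nearly the whole range for Mt1 and Mt2, with medians of 14.5 against 4.14 for Mt1, and below it for Slc30a8, with medians of 1.28 against 2.46.

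Because CDS cells were deeper, beta cells were also thinned at random to 5000 UMIs each, which left 4748 saline and 3313 CDS cells and left out 171 and 268 shallower ones. At this depth 78.9% of saline (95% Clopper-Pearson interval 77.8 to 80.1) and 93.4% of CDS beta cells (92.5 to 94.2) had at least 1 Mt1 UMI, against 94.8% and 99.4% unthinned. At least 10 Mt1 UMIs were found in 17.7% and 41.2%, and at least 50 in 2.36% and 10.2%. Among endothelial cells thinned the same way, 163 saline and 183 CDS cells with a class median of 5084 and 7595 UMIs before thinning, 65.6% and 80.9% had an Mt1 UMI. No class here is known to lack Mt1, and the part of free RNA in its shares was not tested. An Mt2 UMI was found in 46.0% and 61.3% of thinned cells, or 70.6% and 90.3% unthinned, and an Mt3 UMI in 4.42% and 9.09%, or 12% and 26.8% unthinned. For Slc30a8 the thinned shares were 69.2% and 50.4%, against 91.5% and 85.8% unthinned, and for Slc30a7 they were 26.6% and 17.6%. Thinned endothelial cells had a Slc30a8 UMI in 6.75% and 2.73%, and an Mt3 UMI in 0 of 163 and 0 of 183 cells. The 95% Clopper-Pearson intervals for Mt3 reach up to 2.238% and 1.996%.

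Among thinned beta cells Mt1 and Mt2 went together, with a Spearman rho of 0.64 over 4748 saline cells and 0.77 over 3313 CDS cells. Mt3 did not follow them, at 0.0084 and -0.0099 with Mt1. Cells with more Mt1 had less Slc30a8, at -0.26 in both libraries. Slc30a1 was weakly tied to Mt1, at 0.13 and 0.09, and every other pair with Mt1 lay between -0.05 and 0.03. Cells of 1 library share its free RNA, so these values are descriptions.

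The genes most like Mt1 plus Mt2 among beta cells, out of 2481 ranked in both libraries, were Mif, a secreted cytokine gene, at a rho of 0.36 and 0.52, and the mitophagy receptor gene Bnip3 at 0.36 and 0.49. The glycolytic enzyme genes Tpi1 (0.34 and 0.39), Pgk1 (0.34 and 0.43), Aldoa (0.34 and 0.44), Pgam1 (0.31 and 0.44), Pfkp (0.30 and 0.30) and Gapdh (0.32 and 0.30) came next. No gene was close to Slc30a8 in this measure. Among its nearest were the granule protein gene Ptprn2, the glucose transporter gene Slc2a2, Acly, A230057D06Rik, Txnip, Zbtb20 and Myt1l, at values of 0.18 to 0.27. Across the 12 class sums, which separate alpha and beta cells from the rest, Slc30a8 was most like Slc38a4 and Csmd2 at a Pearson correlation of 0.97, Nell1 at 0.96, and Gpd2 and Nrcam at 0.94.

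Mt1 also varied with how rich a beta cell was in RNA and insulin. Beta cells of each library were split into 4 bins of equal size. By UMIs per cell, Mt1 ran from 1873 CPM in the shallowest bin to 1035 in the deepest for saline, and from 4879 to 2871 for CDS. By the insulin share of UMIs it ran from 2115 to 912 and from 5025 to 2570, and by the mitochondrial share it ran from 1529 to 920 and from 4544 to 2333. Mt3 ran the other way with depth, from 6.65 to 15.2 and from 19.5 to 28.2 CPM. In each of these bins, matched by rank within the library, Mt1 was higher in the CDS library and Slc30a8 was lower. The bins are in plain CPM, under which 9.54% of all genes tested in beta cells were counted as higher and 48.8% as lower. The insulin bins cannot be read apart from Mt1 itself, since both are shares of the same UMIs.

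The other genes of zinc and metal handling in beta cells were taken from a list of 34, chosen with earlier results of these data known. In beta cells 24 genes of this list had enough UMIs. Of these 9 were counted as higher and 3 as lower, where 27.9% and 18.4% of all genes tested were, with a median log2 ratio of 0.25 against 0.06 for all genes tested. The copper chaperone genes Atox1 and Cox17 led, at ratios of 2.82 (2.75 to 2.89) and 2.22 (2.15 to 2.28), and stood at 2.45 and 1.67 against genes of like length. The ferritin chain genes Fth1 and Ftl1, whose proteins store iron, had ratios of 1.57 and 1.51, but 1.13 and 0.986 against genes of like length. The 3 lower genes, picked out after their values were seen, were the zinc importer genes Slc39a11 at 0.695 and Slc39a10 at 0.769 and the copper pump gene Atp7a at 0.775. Against genes of like length they stood at 1.03, 0.885 and 0.935. Mtf1, the gene of the zinc sensor, also named outside the rule, had 2263 and 2423 UMIs and a ratio of 1.14 (1.08 to 1.21), which turned to 0.865 under plain CPM and stood at 1.22 against genes of like length. The counts of this list depended on scaling, with 2 higher and 8 lower under plain CPM, where 9.54% of all genes tested were higher and 48.8% lower.

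Metallothionein genes are also known to respond to glucocorticoids, oxidative stress, cytokines and low oxygen, so short lists of target genes of these signals were read in the same beta cells, against the same background of 27.9% higher and 18.4% lower. These lists were chosen with earlier results of these data known, so their counts are descriptions only. Of 8 glucocorticoid targets, 3 were higher and none lower. The transcription factor gene Cebpd had a ratio of 2.59 and the phosphatase gene Dusp1 1.53, while Klf9 at 1.01 and the co-chaperone gene Fkbp5 at 0.855 were not counted. Of 9 NRF2 targets tested, which detoxify oxidants, 6 were higher and 1 lower, led by Txn1 at 2.58, the heme oxygenase gene Hmox1 at 2.33, Prdx1 at 1.61 and Gclm at 1.46. Of 8 STAT3 and NF-kB targets, 7 were higher and 1 lower, with the lipocalin gene Lcn2 at 3.58, Cebpb at 2.16, the NF-kB inhibitor gene Nfkbia at 1.95 and the receptor gene Il6ra at 0.731.

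Of 8 HIF targets, which respond to low oxygen, 6 were higher and none lower, with Ankrd37 at 2.61, Bnip3 at 2.36, Pdk1 at 1.35 and Vegfa at 1.27. Of 10 integrated stress response genes, 5 were higher and none lower, with Ddit3 at 1.74, summed over its 2 gene IDs, Herpud1 at 1.46, Ddit4 at 1.44 and Trib3 at 1.28. The median log2 ratios were 0.04 for the glucocorticoid list, 0.41 for NRF2, 0.95 for STAT3 and NF-kB, 0.68 for HIF and 0.30 for the integrated stress response, or 0.12, 0.48, 0.53, 0.38 and 0.02 against genes of like length. Against genes of like length, 3 glucocorticoid, 5 NRF2, 6 STAT3 and NF-kB and 6 HIF targets still lay at least 25% above 1, but only 1 integrated stress response gene did, Ddit3 at 1.32, with Ddit4 at 0.974 and Trib3 at 0.973. These counts rest on the ratio alone, without its interval. The share of all genes past that limit was not taken, so they have no background. Under plain CPM 9.54% of all genes tested in beta cells were counted as higher and 48.8% as lower. On that scale the glucocorticoid list had 2 higher and 5 lower genes, with Klf9 at 0.765 and Fkbp5 at 0.646 now counted as lower. The NRF2 list then had 2 higher and 2 lower, the STAT3 and NF-kB list 6 and 1, the HIF list 4 and 0 and the integrated stress response list 1 and 0, with Vegfa at 0.961 and Trib3 at 0.964. The part of any of these signals in the metallothionein values was not tested.

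Outside beta cells Mt1 and Mt2 were counted as higher in each of the 4 classes compared, by less than in beta cells. Alpha cells had 4643 and 13113 Mt1 UMIs and a ratio of 1.99 (1.92 to 2.06), against a background of 19.9% of genes higher and 11.2% lower. Delta cells, with 4684 and 10735 Mt1 UMIs, had a ratio of 1.97 (1.90 to 2.04), against 16.3% higher and 13.3% lower. Macrophages had 2919 and 6944 UMIs and a ratio of 1.80 (1.73 to 1.88), against 18.5% and 10.9%, and endothelial cells 843 and 1066 UMIs and a ratio of 1.36 (1.24 to 1.49), against 19.1% and 12.7%. The Mt2 ratios were 1.48 in alpha cells, 1.46 in delta cells, 1.48 in macrophages and 1.27 in endothelial cells. Whether the ratio of beta cells differs from these was not tested, since each group is 1 library.

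These ratios were smaller when read against genes of like length. Mt1 then stood at 1.34 in alpha cells, 1.38 in delta cells, 1.20 in macrophages and 0.971 in endothelial cells, and Mt2 at 0.990, 1.01, 0.989 and 0.907. Of these values only Mt1 in alpha and delta cells still lay at least 25% above 1. In endothelial cells Mt1 and Mt2 also missed that limit under plain CPM, at 1.24 and 1.16, and reached 2.86 and 2.29 when cells were taken from the endothelial cluster in place of the marker gate. Mt3 had under 50 UMIs in each of these classes and was not compared.

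Slc30a7 was counted as lower in alpha cells, at 603 and 648 UMIs and a ratio of 0.757 (0.677 to 0.848), in delta cells at 0.789 (0.665 to 0.936), which became 0.807 with DESeq2 size factors and 0.805 with doublets kept, and in endothelial cells at 0.635 (0.442 to 0.905). In macrophages it stood at 0.947 (0.648 to 1.39). Against genes of like length Slc30a7 stood at 0.821 in alpha and 0.870 in delta cells, no longer 20% below 1, and at 0.676 in endothelial cells. Slc30a1 in alpha cells, at 86 and 96 UMIs and a ratio of 0.787 (0.582 to 1.06), was not counted, and stood at 0.610 against genes of like length. Slc30a8 in alpha cells, with 5908 and 7424 UMIs, had a ratio of 0.886 (0.856 to 0.916), inside the limits used. Slc30a1 in endothelial cells, the class where it was highest, had 173 and 103 UMIs and a ratio of 0.640 (0.496 to 0.821), and Slc39a14 there had 76 and 47 UMIs and a ratio of 0.665 (0.452 to 0.969). With cells thinned to 1 depth, or with cells of the endothelial cluster, fewer of these transporters were counted as lower, 1 and 2 in place of 4. Slc30a8 in endothelial cells was counted as lower too, at 41 and 17 UMIs, but lay near the insulin share described above. Slc30a5 and Slc39a7 were counted neither as higher nor as lower in any of the 4 classes.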

How the data were processed

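Single islet cells were measured in 1 saline and 1 CDS library. Per the file headers, the deposited matrices hold raw UMI counts written by Cell Ranger 7.1.0, not normalized. Seurat 4, edgeR without a version, Cell Ranger 7.1 and build mm10 appear in the submitters' processing notes. Annotation, intron counting and the use of strand were not given in the sources used here, and the labels' protocols name both v3.1 and v2 chemistry.

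Barcodes with at least 500 genes, 1000 UMIs and at most 20% mitochondrial UMIs were kept, and doublets called by Scrublet in Scanpy 1.11.5 (5.30% of saline and 3.99% of CDS barcodes) were removed. Cells were gated by hormone shares of UMIs (at least 15% insulin, 1% Gcg, 1% Sst or 10% Ppy) or by markers with a UMI (at least 4 of 8 for endothelial cells and macrophages). These limits were set after the hormone distributions were seen. UMIs were summed per class and library and scaled with TMM factors (edgeR 4.0.16, R 4.3.3). A gene was compared with at least 50 UMIs over both libraries, a UMI in each, and at least 100 cells per library. Levels carry exact Poisson intervals and ratios an exact interval conditional on the sum of the 2 Poisson counts. Gene spans came from GENCODE M21, which matched 32235 of 32285 gene IDs.

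Members and lists were chosen with earlier results of these data known. Beside the 9 genes, the rule named up to 4 genes per list by absolute log2 ratio at 20 CPM or more, and the 8 genes (beta cells, a UMI in at least 20% of thinned cells) or 5 genes (class sums, 50 CPM or more) most like Mt1 or Slc30a8. Alternatives were plain CPM, DESeq2 1.42.0 size factors, a denominator without hormone, enzyme and mitochondrial genes, looser and stricter filters, doublets kept, a stricter gate, Leiden clusters, a mean over cells, thinned cells, gene length, other ratio limits and no filter on low counts.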

Additional observations from a re-analysis of the deposited data

How the results depend on the processing

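No paired analysis was possible because each group is 1 library. In beta cells 3 members stayed higher under every alternative run, while the lower count moved from 2 to 4 with plain CPM, 1 with the length adjustment and 0 with ratio limits of 2 and 0.5. Of the other zinc and metal genes, 9 higher and 3 lower became 2 and 8 with plain CPM, 4 and 6 with the hormone-free denominator, 5 and 1 with the length adjustment, and 2 and 0 with limits of 2 and 0.5. The length adjustment left 1 member higher in alpha cells, 1 in delta cells and 0 in endothelial cells and macrophages, with 0 lower in delta cells and 2 lower in macrophages. It turned Mt2 to 0.990 in alpha cells, 0.907 in endothelial cells and 0.989 in macrophages, and Mt1 to 0.971 in endothelial cells. Plain CPM and the hormone-free denominator each gave 2 lower members in alpha cells, 2 in delta cells and 0 higher in endothelial cells, and a mean over cells gave 2 lower in alpha and in delta cells. The counts over all genes moved too. Plain CPM gave 2492 of 11896 genes lower in alpha cells, against 1327 with TMM scaling. In delta cells it gave 2437 of 11118 lower, against 1484. In endothelial cells it gave 913 of 8081 higher, against 1544. DESeq2 size factors and kept doublets each gave 0 lower in delta cells and 1 higher in endothelial cells, the stricter gate 3 lower in delta cells, thinned cells 1 higher and 1 lower in endothelial cells, and Leiden clusters 2 lower there. The counts with the length adjustment rest on the ratio alone, without its interval. Apart from plain CPM and the ratio limits, no share of all genes is given here for the alternatives. The cause of these moves was not tested. The delta cluster stayed unnamed, so delta cells had no cluster alternative, and classes with few cells limit the transporter ratios to wide intervals.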
